A study of Homo sapiens with 18 samples.

Results

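Matrix proteases, plasminogen activators and their inhibitors were described here through 9 genes: the matrix metalloproteinases MMP1, MMP3, MMP9 and MMP10, the tissue inhibitors of metalloproteinases TIMP1, TIMP2 and TIMP3, the urokinase-type plasminogen activator PLAU and its receptor PLAUR. They were found by gene symbol among 21448 tested probe sets (the sets of array oligonucleotides that measure 1 transcript each), and 8 of the 9 genes had a probe set, 1 each. TIMP2 was matched to no probe set and has no value here. The values came from 18 Clariom S arrays, which measure total RNA at gene level, in 6 groups of 3 arrays.

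All groups were SKOV-3 cells, an established human ovarian carcinoma line grown as monolayers, and all carried a pcDNA3-based plasmid. SKOV-3-AA cells had received PEA-15AA, a form of the signalling adaptor PEA-15 in which 2 serines were replaced by alanine so that they cannot be phosphorylated. SKOV-3-DD cells had received PEA-15DD, in which aspartic acid stands in for the same serines and mimics phosphorylation, and SKOV-3-EV cells had received the empty vector. Each transfection was measured with cisplatin (15 µM for 24 h, started 24 h after transfection) and untreated, that is, in medium. Cisplatin is a platinum drug that crosslinks DNA. No selection of transfected cells is described in the sources used here, no source states that the 3 arrays of a group came from separate cultures, and p-values therefore measure the spread between these arrays, which may be technical. The number of arrays limits the precision.

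Secreted matrix metalloproteinases are zinc enzymes made as inactive proenzymes that cut collagens and other matrix proteins once their propeptide is removed. TIMP proteins bind the active enzymes and block them. Urokinase, held at the cell surface by its receptor, turns plasminogen into plasmin, which degrades fibrin and can activate several pro-metalloproteinases. In ovarian carcinoma these enzymes are best known for their part in shedding and in invasion of the peritoneal surface.

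The promoters of 3 genes are shown. The PLAUR and TIMP1 transcripts stood apart between treatments, and MMP10 belongs to the same chromosome 11 gene cluster as MMP1. The PLAU transcript also stood apart between treatments, but its 2 windows are described below without being printed. The RefSeq promoter table (build GRCh38.p14) held 6 windows for 5 of the genes, MMP10, TIMP1, TIMP3, PLAU with 2 and PLAUR. Each line gives 200 bases 5′ to 3′ that end just before the annotated start: MMP10 at chr11:102780629-102780828 on the minus strand, TIMP1 at chrX:47582236-47582435 on the plus strand and PLAUR at chr19:43670170-43670369 on the minus strand. Capitals mark matches, searched on both strands, to the AP-1 motif, spelled TGANTCA. They also mark the ETS motif, spelled AGGAAG, which reads CTTCCT where it lies on the other strand. The last motif marked is the TATA box, spelled TATAAA.
MMP10: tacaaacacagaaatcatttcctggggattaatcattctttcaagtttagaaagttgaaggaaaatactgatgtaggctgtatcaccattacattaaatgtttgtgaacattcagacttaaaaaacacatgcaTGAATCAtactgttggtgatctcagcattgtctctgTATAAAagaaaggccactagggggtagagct
TIMP1: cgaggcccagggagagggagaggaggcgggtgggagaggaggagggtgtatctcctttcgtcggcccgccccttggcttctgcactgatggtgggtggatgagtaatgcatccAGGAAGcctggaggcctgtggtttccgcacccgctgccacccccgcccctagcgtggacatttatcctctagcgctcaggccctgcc
PLAUR: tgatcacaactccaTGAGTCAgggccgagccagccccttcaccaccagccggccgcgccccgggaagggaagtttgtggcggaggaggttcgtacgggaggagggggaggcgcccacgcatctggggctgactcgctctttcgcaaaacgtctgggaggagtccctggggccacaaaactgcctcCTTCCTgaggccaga
AP-1 and ETS factors are transcription factors that act downstream of the ERK kinases, which PEA-15 binds. In the 250 bases before the start, the MMP10 window held TGAATCA at −67 to −61 and TATAAA at −31 to −26, and the PLAUR window held TGAGTCA at −186 to −180 and CTTCCT at −15 to −10, counted back from the start. With G or C required at the centre of the AP-1 motif, the PLAUR window held 1 match and the MMP10 window 0. This stricter form occurred in 4.2% of 35116 promoters. The TIMP1 window held AGGAAG at −87 to −82 and no match to TGANTCA. Neither PLAU window matched TGANTCA, nor did the TIMP3 window, which held 5 matches to the SP1 motif GGGCGG, again on either strand. The TIMP1 window held 2 matches to GGGCGG. The second PLAU window held 3, and AGGAAG at −221 to −216. The motifs did not overlap each other in these windows. Among 35116 promoters of the same length, 6.57% held TGANTCA, 28.7% AGGAAG, 10.7% TATAAA and 42.6% GGGCGG, so that such matches also occur in many other promoters, and a match is a description of letters, not of a bound site.

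Signals are given as deposited, on a log2 scale on which 1 unit is a doubling. The level of one probe set was not compared with that of another, only with the 612 features of the same array named as negative controls. They were taken by name, and what they match was not examined. MMP1, TIMP1, PLAU and PLAUR lay above the 95th percentile of the negative controls on all 9 cisplatin and all 9 untreated arrays. That percentile ran from 6.80 to 7.62 on cisplatin arrays and from 6.30 to 6.95 on untreated arrays. MMP10 lay above it on 1 cisplatin array and 5 untreated arrays, although its mean was 6.80 with cisplatin and 6.62 untreated. Counts of arrays above the percentile therefore do not give the direction of a change between treatments. MMP3, MMP9 and TIMP3 lay above the percentile on 0 of the 18 arrays, so that their values below fall within the range of the controls.

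Several properties of the whole series bear on these values. Negative control medians were 3.70 to 3.92 on cisplatin arrays and 3.57 to 3.69 on untreated arrays, a difference of 0.19, whereas medians of the tested probe sets were 6.33 to 6.44 on cisplatin arrays and 6.53 to 6.61 on untreated arrays, a difference of −0.20. Of 8 measured epithelial and ovarian carcinoma markers, 6 lay above the control percentile on all arrays, including the ovarian lineage factor PAX8 and the keratins KRT7, KRT8, KRT18 and KRT19. PEA15 itself, the gene on the mutant plasmids, was not higher on the arrays labelled SKOV-3-AA, at 9.99 to 10.42 with cisplatin and 9.80 to 10.01 untreated, against 10.95 to 11.51 with cisplatin and 10.06 to 10.39 untreated on the arrays labelled SKOV-3-EV. On arrays labelled SKOV-3-DD it spanned 10.53 to 11.63 with cisplatin and 9.59 to 12.21 untreated, and its differences from SKOV-3-EV did not pass the test for either mutant (limma, adjusted p 0.37 to 1). No source used here says whether its probe set reads the plasmid-borne coding sequence, and the transfection labels therefore have no check in these data.

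**Figure D1:**
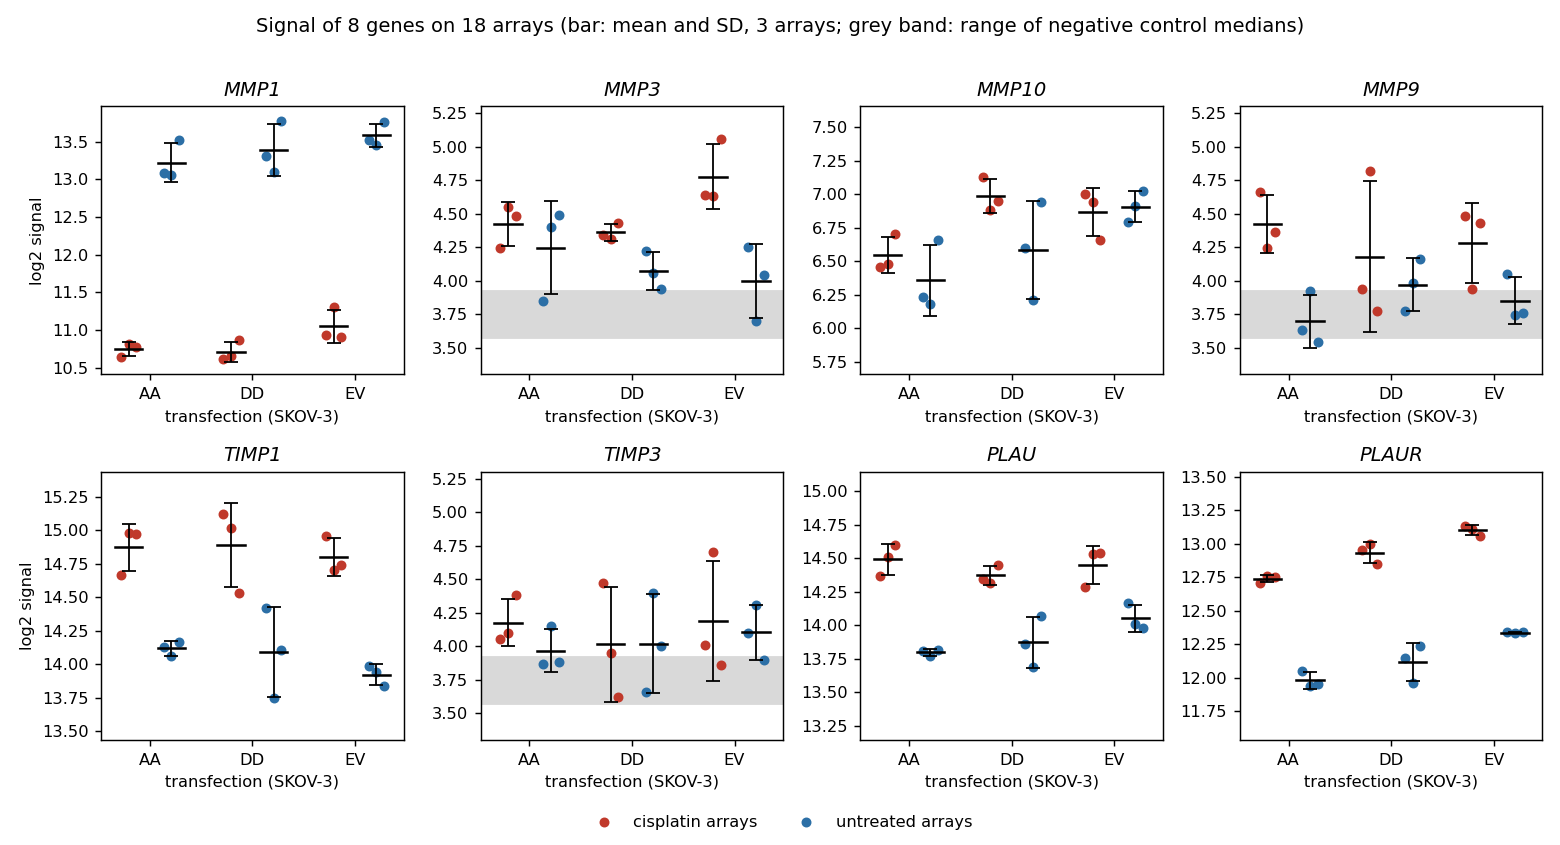
Log2 signal (vertical axis, scaled per gene) of the 8 genes on each array, by transfection, with cisplatin arrays (red) left of untreated arrays (blue); black bars give the mean and SD of 3 arrays, and the grey band in the MMP3, MMP9 and TIMP3 panels spans the negative control medians, 3.57 to 3.92. MMP1 separates downwards with cisplatin in every transfection, and TIMP1, PLAU and PLAUR separate upwards.

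The first comparison asked how 24 h of cisplatin moved these transcripts. MMP1, the interstitial collagenase, fell 5.92-fold, whereas TIMP1, PLAU and PLAUR rose by 1.45- to 1.75-fold over the 3 transfections together. MMP3 and MMP9 also rose, by 0.42 and 0.45 on the log2 scale, within the range of the negative controls, and MMP10 and TIMP3 did not pass the test. Differences were called at an adjusted p under 0.05 in limma, a linear model fitted across all probe sets with Benjamini-Hochberg adjustment over all of them. Over all transfections 5 of the 8 genes were higher after cisplatin and 1 was lower, against 36.5% and 28.7% of all tested probe sets in these directions, 65.2% in either. The median change of the 8 genes was 0.44, beside 0.10 for all probe sets. The study called a gene at an unadjusted p under 0.05 if it also changed 2-fold or more, and by that rule 1 of the 8 genes was called, MMP1, and 18.6% of all probe sets.

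MMP1 cuts the fibrillar collagens of the interstitial matrix. It gave 10.64, 10.82 and 10.77 in cisplatin-treated SKOV-3-AA cells, against 13.08, 13.06 and 13.52 in untreated SKOV-3-AA cells. It gave 10.61, 10.65 and 10.86 in cisplatin-treated SKOV-3-DD cells, against 13.31, 13.10 and 13.77 in untreated SKOV-3-DD cells. In SKOV-3-EV cells it gave 10.93, 11.30 and 10.91 with cisplatin, against 13.53, 13.46 and 13.76 untreated. Every cisplatin array was thus below every untreated array, with a gap wider than the spread inside either treatment. The log2 fold change was −2.47 in SKOV-3-AA, −2.69 in SKOV-3-DD and −2.54 in SKOV-3-EV cells (SE 0.18 each). Over all transfections it was −2.56 (SE 0.10, 95% interval −2.78 to −2.35, n = 9 arrays per treatment), a 5.92-fold lower signal (5.10 to 6.86) with a limma adjusted p of 2.1e-13. Only 1.21% of all probe sets had a change as low or lower.

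TIMP1 encodes a secreted inhibitor of most matrix metalloproteinases. Its cisplatin arrays gave 14.67, 14.98 and 14.97 in SKOV-3-AA cells, against 14.13, 14.06 and 14.17 without the drug. The SKOV-3-DD arrays gave 15.12, 15.02 and 14.53 with cisplatin, against 14.42, 13.75 and 14.11 untreated. For SKOV-3-EV the values were 14.96, 14.70 and 14.74 with cisplatin, against 13.99, 13.94 and 13.84 untreated. All 9 cisplatin arrays were above all 9 untreated arrays, with the narrowest gap in SKOV-3-DD cells. The log2 fold change was 0.75, 0.80 and 0.88 in SKOV-3-AA, SKOV-3-DD and SKOV-3-EV cells (SE 0.17 each), and 0.81 over all of them (SE 0.10, 1.75-fold, limma adjusted p 1.1e-06). TIMP3, the inhibitor that stays bound to the extracellular matrix, lay between 3.62 and 4.70 with cisplatin and between 3.66 and 4.40 untreated, with a median of 4.05 with cisplatin and 4.0 untreated. Its arrays overlapped throughout, and its change over all transfections was 0.09 (95% interval −0.19 to 0.38, limma adjusted p 0.56).

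PLAU encodes the protease urokinase. It gave 14.37, 14.51 and 14.60 in cisplatin-treated SKOV-3-AA cells, against 13.81, 13.77 and 13.82 in untreated ones. In SKOV-3-DD cells it gave 14.35, 14.32 and 14.45 with cisplatin, against 13.86, 13.69 and 14.07 untreated. In SKOV-3-EV cells it gave 14.29, 14.53 and 14.54 with cisplatin, against 14.17, 14.01 and 13.98 untreated. Again the treatments did not overlap, although the gap in SKOV-3-EV cells was narrow. The log2 fold change was 0.69, 0.50 and 0.40 in SKOV-3-AA, SKOV-3-DD and SKOV-3-EV cells (SE 0.12 each) and 0.53 over all of them (SE 0.07, 1.45-fold, limma adjusted p 2.9e-06).

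PLAUR encodes the glycolipid-anchored receptor that holds urokinase at the cell surface. It gave 12.71, 12.76 and 12.75 in cisplatin-treated SKOV-3-AA cells, against 12.05, 11.94 and 11.95 untreated. In SKOV-3-DD cells it gave 12.95, 13.00 and 12.85 with cisplatin, against 12.15, 11.96 and 12.24 untreated. In SKOV-3-EV cells it gave 13.13, 13.11 and 13.06 with cisplatin, against 12.34, 12.33 and 12.34 untreated. The treatments were fully apart. The log2 fold change was 0.76 in SKOV-3-AA, 0.82 in SKOV-3-DD and 0.77 in SKOV-3-EV cells (SE 0.11 each) and 0.78 over all of them (SE 0.06, 1.72-fold, limma adjusted p 2.3e-09). These 4 genes, MMP1, TIMP1, PLAU and PLAUR, were the ones whose 9 cisplatin and 9 untreated arrays did not overlap, 4 of 8 against 31.3% of all probe sets.

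The stromelysins MMP3 and MMP10 cut a broad range of matrix proteins and can activate other pro-metalloproteinases, and MMP9 is a gelatinase that cuts basement membrane collagen. MMP3 gave 4.64, 4.63 and 5.06 in cisplatin-treated SKOV-3-EV cells, against 4.25, 3.70 and 4.04 in untreated SKOV-3-EV cells. These arrays did not overlap, as for 59.0% of all probe sets, and the log2 fold change was 0.79 (SE 0.18, limma adjusted p 0.0014). SKOV-3-AA cells had a log2 fold change of 0.18 and SKOV-3-DD cells one of 0.28, and neither passed the test (adjusted p 0.44 and 0.22).

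MMP9 passed the test singly in SKOV-3-AA cells, with 4.66, 4.24 and 4.36 after cisplatin, against 3.63, 3.92 and 3.54 untreated. These arrays did not overlap, as for 59.7% of all probe sets, and the log2 fold change was 0.72 (SE 0.23, limma adjusted p 0.014). Without SKOV-3-AA cisplatin replicate 1 the adjusted p was 0.067, and without SKOV-3-AA untreated replicate 3 it was 0.057. In SKOV-3-DD and SKOV-3-EV cells the change was 0.21 and 0.44 (adjusted p 0.51 and 0.12). Over all transfections MMP3 and MMP9 were higher after cisplatin with adjusted p of 0.0018 and 0.0054, and their arrays overlapped. The medians of the negative controls moved in the same direction by 0.19, and their part in these differences was not tested. After quantile normalization of the arrays neither gene passed the test, with adjusted p of 0.051 for MMP3 and 0.052 for MMP9.

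MMP10 lay between 6.46 and 7.13 on cisplatin arrays and between 6.18 and 7.02 on untreated arrays, with a median of 6.88 with cisplatin and 6.66 untreated. Its arrays overlapped in each transfection, and its change was 0.19 in SKOV-3-AA, 0.40 in SKOV-3-DD and −0.04 in SKOV-3-EV cells (limma adjusted p 0.40, 0.072 and 0.87). Over all transfections it was 0.18 (95% interval −0.03 to 0.40, adjusted p 0.12). It passed the test when each array was centred on its median (0.38, adjusted p 0.0025) and after quantile normalization (0.43, adjusted p 0.0013).

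**Figure D2:**
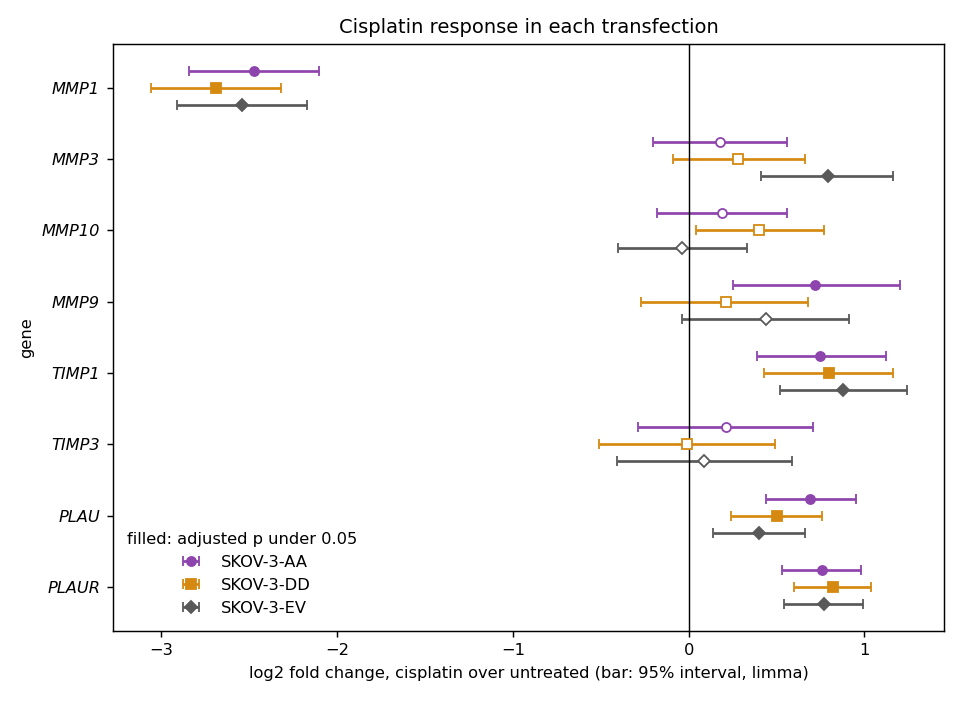
Log2 fold change of each gene, cisplatin over untreated (horizontal axis), with the 95% interval from limma, in SKOV-3-AA (circles), SKOV-3-DD (squares) and SKOV-3-EV cells (diamonds); filled symbols mark an adjusted p under 0.05. MMP1 sits between −2.69 and −2.47, TIMP1, PLAU and PLAUR sit between 0.40 and 0.88, and the intervals of the 3 transfections overlap for each gene.

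Counted within each transfection, 4 of the 8 genes were higher and 1 was lower after cisplatin in SKOV-3-AA cells, against 22.3% and 23.0% of all probe sets (45.3% in either direction). In SKOV-3-DD cells 3 were higher and 1 was lower, against 20.1% and 22.7% (42.8%), and in SKOV-3-EV cells 4 were higher and 1 was lower, against 26.2% and 24.3% (50.5%). MMP1, TIMP1, PLAU and PLAUR were called in all 3 transfections in the same direction. With a background this high, the counts alone do not set these genes apart. The comparison of the responses themselves asked whether a PEA-15 mutant changed the effect of the drug. In none of the 3 differences of responses was a gene called, nor any probe set on the array (0%). At an unadjusted p under 0.05, 1 of the 8 genes differed for SKOV-3-AA minus SKOV-3-EV (6.90% of all probe sets), 0 for SKOV-3-DD minus SKOV-3-EV (7.59%) and 0 for SKOV-3-AA minus SKOV-3-DD (4.70%). The 1 gene was MMP3, with a difference of −0.61 (SE 0.25, unadjusted p 0.028, limma adjusted p 0.67). For MMP1 the response in SKOV-3-AA minus that in SKOV-3-EV cells was 0.07 (95% interval −0.45 to 0.59), and for SKOV-3-DD it was −0.15 (−0.67 to 0.37). For PLAUR the same differences were −0.01 (−0.32 to 0.31) and 0.05 (−0.26 to 0.37), and such intervals do not show that the responses were alike.

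Cell markers moved with cisplatin as well. For every marker list below, the shares over all probe sets were 36.5% higher and 28.7% lower. Of the 8 epithelial and ovarian carcinoma markers 4 were higher and 2 lower. KRT7 rose by 0.96 and KRT8 by 0.24 on the log2 scale, MSLN (0.84) and CLDN4 (0.67) were higher without passing the control percentile on any array, PAX8 fell by 3.45 and KRT19 fell by 1.60. The log2 of the summed epithelial markers was 16.62 to 16.71 with cisplatin and 16.59 to 16.76 untreated. Among 7 measured fibroblast markers 1 lay above the control percentile on all arrays, the collagen gene COL1A2, which fell by 1.10, while DCN (0.63) and COL1A1 (0.29) were higher (summed level 11.21 to 11.88 with cisplatin, 12.29 to 13.05 untreated). Among 6 measured leukocyte markers 2 did so, PTPRC, which fell by 2.33, and CD68, which rose by 0.74, and 3 others that never did so were higher (12.29 to 12.72 with cisplatin, 12.60 to 13.05 untreated), and 0 of 5 endothelial markers did so, 2 of them called higher (6.72 to 7.06 with cisplatin, 6.47 to 7.29 untreated). The part of these shifts in the changes of MMP1, TIMP1, PLAU and PLAUR was not tested, and in such bulk RNA fewer cells of a kind and less RNA per cell cannot be told apart.

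The second question was whether the PEA-15 mutants moved these transcripts against the empty vector. In limma none of the 8 genes was called in any of the 6 comparisons between transfections, and neither was any other probe set (0 of 21448, 0%). At an unadjusted p under 0.05, 1 of the 8 genes differed in each of the 3 comparisons of cisplatin-treated cells, against 12.5% of all probe sets for SKOV-3-AA over SKOV-3-EV, 7.79% for SKOV-3-DD over SKOV-3-EV and 6.98% for SKOV-3-AA over SKOV-3-DD. In untreated cells 2 genes did so for SKOV-3-AA over SKOV-3-EV (3.09%) and 0 in the other comparisons (5.47% and 3.99%). PLAUR was the gene with the steadiest order. All 6 arrays labelled SKOV-3-AA or SKOV-3-DD were below all 3 SKOV-3-EV arrays, both with cisplatin and untreated. Such a lack of overlap, counted in either direction, was shown by 2.89% of all probe sets with cisplatin and by 3.86% untreated. The share for the lower direction alone, or for both treatments together, was not counted. With cisplatin the log2 fold change of PLAUR against SKOV-3-EV was −0.36 on the arrays labelled SKOV-3-AA (95% interval −0.58 to −0.14, unadjusted p 0.0033, limma adjusted p 0.20) and −0.17 on those labelled SKOV-3-DD (−0.39 to 0.06, adjusted p 0.78). In untreated cells the differences were −0.35 (−0.58 to −0.13, unadjusted p 0.0040, adjusted p 1) and −0.22 (−0.44 to 0, adjusted p 0.91). Averaged over both treatments, a comparison chosen after the values had been seen, PLAUR had a log2 fold change of −0.36 for SKOV-3-AA over SKOV-3-EV (SE 0.07, unadjusted p 0.00017, adjusted p 0.43). By unadjusted p it stood at rank 6 of all probe sets, and 31 probe sets shared its adjusted p. The group means ran, highest first, SKOV-3-EV with cisplatin 13.10, SKOV-3-DD with cisplatin 12.93, SKOV-3-AA with cisplatin 12.74, SKOV-3-EV untreated 12.33, SKOV-3-DD untreated 12.12 and SKOV-3-AA untreated 11.98. Of these neighbours, only the untreated SKOV-3-DD arrays overlapped the next group, untreated SKOV-3-AA.

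MMP10 had the other low unadjusted p-values. With cisplatin it gave 6.46, 6.48 and 6.70 on the arrays labelled SKOV-3-AA and 7.13, 6.88 and 6.95 on those labelled SKOV-3-DD, against 7.0, 6.94 and 6.66 on those labelled SKOV-3-EV. Untreated, the arrays labelled SKOV-3-AA gave 6.23, 6.18 and 6.66 and those labelled SKOV-3-DD gave 6.60, 6.21 and 6.94, against 6.79, 6.91 and 7.02 on those labelled SKOV-3-EV. The SKOV-3-AA arrays were below the SKOV-3-DD arrays with cisplatin and below the SKOV-3-EV arrays untreated, without overlap in either case. The differences were −0.44 for SKOV-3-AA against SKOV-3-DD with cisplatin (unadjusted p 0.021, limma adjusted p 0.64) and −0.55 for SKOV-3-AA against SKOV-3-EV untreated (unadjusted p 0.0055, adjusted p 1). For MMP3 the log2 fold change of SKOV-3-DD over SKOV-3-EV with cisplatin was −0.42 (unadjusted p 0.031, adjusted p 0.60).

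**Figure D3:**
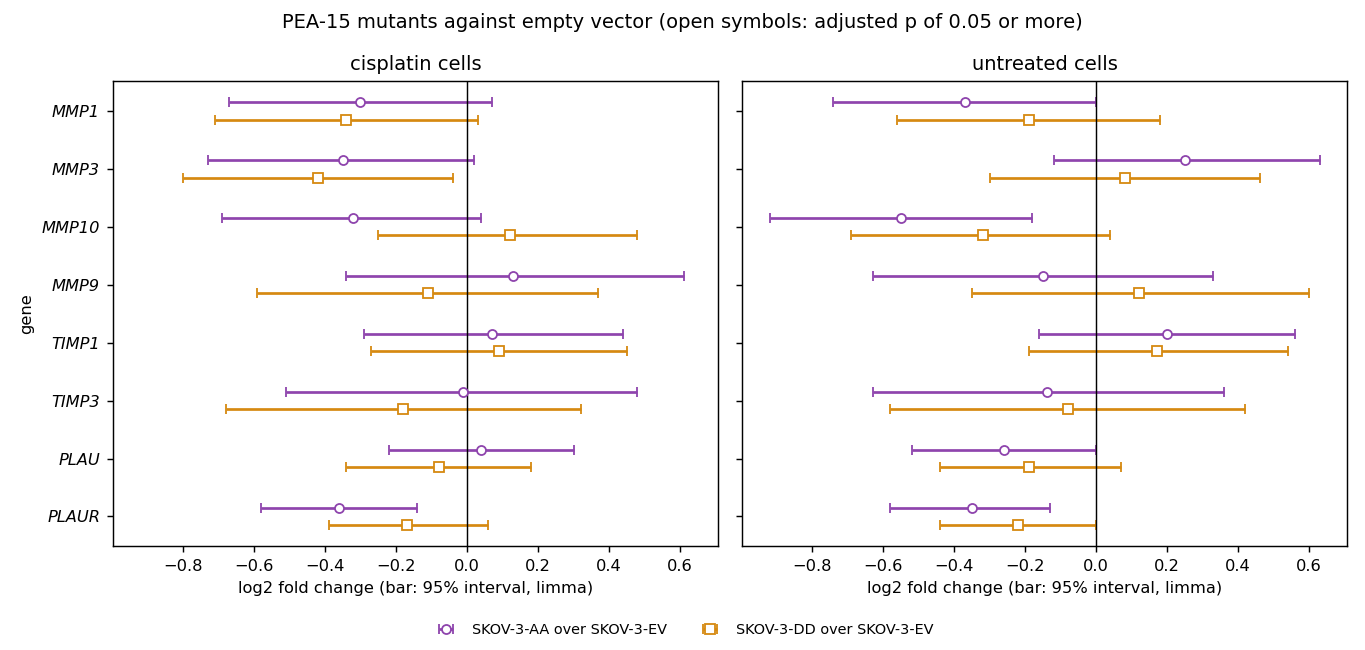
Log2 fold change of each gene for SKOV-3-AA over SKOV-3-EV (circles) and SKOV-3-DD over SKOV-3-EV (squares), with the 95% interval from limma, in cisplatin-treated (left) and untreated cells (right); open symbols mark an adjusted p of 0.05 or more, which holds for all of them. PLAUR lies left of 0 in all 4 comparisons, between −0.36 and −0.17.

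Without a test, the groups can also be read by overlap of their arrays. With cisplatin, 3 of the 8 genes in SKOV-3-AA cells did not overlap the empty vector, namely MMP1, MMP3 and PLAUR, against 18.7% of all probe sets. The same 3 genes did not overlap it in SKOV-3-DD cells, against 8.07%, and all 3 were lower in the mutants. For MMP1 the log2 fold change with cisplatin of SKOV-3-AA over SKOV-3-EV was −0.30, and that of SKOV-3-DD was −0.34 (limma adjusted p 0.50 and 0.69). These comparisons share their SKOV-3-EV arrays. Set against SKOV-3-DD, SKOV-3-AA had 2 genes that did not overlap with cisplatin (MMP10 and PLAUR, against 9.40%) and 0 untreated (against 10.7%). In untreated cells, 4 genes in SKOV-3-AA cells did not overlap SKOV-3-EV (MMP10, TIMP1, PLAU and PLAUR, against 13.6%), with TIMP1 higher and the others lower in SKOV-3-AA. SKOV-3-DD cells had 1 such gene untreated, PLAUR (against 12.5%), again lower than in SKOV-3-EV.

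The transcripts most like MMP1 and PLAUR, the 2 genes whose group means spanned at least 1 on the log2 scale, were looked up among the 9447 genes of the brighter part of the array (above its median). Over the 18 arrays, DNAJC3, TMEM117 and PIP4K2A had the highest correlation with MMP1 (r = 0.99 each), and KLF4, SPHK1 and CCN1 had it with PLAUR (r = 0.97 each). These values mostly restate the difference between treatments, which all 18 arrays share. With the mean of each treatment taken off, ATF4, DNAJC3 and FRMD6 were closest to MMP1 (0.80, 0.80 and 0.75), and KLF4, SCML1 and GADD45B were closest to PLAUR (0.87, 0.85 and 0.82). DNAJC3 and KLF4 were near the top by both measures. The correlations are descriptions over arrays that share scaling, with no test.

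Related genes give the surroundings of these changes, all over the 3 transfections together. Of 18 measured other matrix metalloproteinases (of 19 listed), 7 were higher and 1 was lower after cisplatin (against 36.5% and 28.7% of all probe sets), with a median change of 0.16 beside 0.10 for all probe sets. Of the 7 higher genes, 5 lay above the 95th percentile of the negative controls on 0 of the 18 arrays. The lower one was MMP16, a membrane-bound metalloproteinase that can activate pro-MMP2, at 5.13 to 6.26 with cisplatin and 8.01 to 8.52 untreated (−2.62, SE 0.12, limma adjusted p 1.9e-12). It lay above the control percentile on all 9 untreated arrays and on 0 cisplatin arrays, and with cisplatin arrays set no lower than that percentile it was at least 2.08-fold lower. The highest changes were those of the macrophage elastase MMP12 (0.85, SE 0.16), of the membrane-bound MMP24 (0.64, SE 0.09) and of the epilysin MMP28 (0.42, SE 0.11). MMP12 and MMP28 lay above the control percentile on 0 arrays, so that their values fall within the range of the controls. MMP12, at 4.60 to 5.77 with cisplatin and 4.21 to 5.10 untreated, was nevertheless above the control medians. MMP1 shares its chromosome 11 cluster with 8 other metalloproteinase genes, in the order MMP7, MMP20, MMP27, MMP8, MMP10, MMP1, MMP3, MMP12 and MMP13. MMP1 was the 1 gene of the cluster that was lower, beside 3 that were higher (MMP12, MMP3 and MMP8) and 5 that were not called (against 36.5% higher and 28.7% lower over all probe sets), and the 3 higher ones lay above the control percentile on 0 arrays. Its neighbours MMP10 and MMP3 had log2 fold changes of 0.18 and 0.42, and neither was called lower. The MMP8 change of 0.28, of the neutrophil collagenase, was lost when some single arrays were left out and after quantile normalization, where it was 0.11 (adjusted p 0.37).

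In the plasminogen system, 14 of 16 listed genes were measured, and 5 were higher and 6 lower (against 36.5% and 28.7% of all probe sets), with a median of −0.12. PLAT, the tissue-type activator, was at 12.75 to 13.01 with cisplatin and 13.23 to 13.49 untreated (−0.49, SE 0.06, limma adjusted p 2.0e-06), the opposite direction to PLAU. The plasminogen receptor PLGRKT, at 7.79 to 8.51 with cisplatin and 9.04 to 9.40 untreated, fell by 1.17 (SE 0.08), and LRP1, the endocytic receptor that clears protease and inhibitor complexes, fell by 0.82 (SE 0.12). Higher were the protease inhibitor SERPINI1 (1.19, SE 0.11), plasminogen itself, PLG (0.63, SE 0.17), and the LRP1 chaperone LRPAP1 (0.57, SE 0.07). SERPINI1 and PLG lay above the control percentile on 0 of the 18 arrays. Urokinase and its receptor thus rose while PLAT and PLGRKT fell. Other bright genes of this list went both ways. S100A10 was higher (0.26), ANXA2 (−0.28) and SERPINE2 (−0.46) were lower, and ENO1 (−0.10) was not called.

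Of 8 other inhibitors and partners of metalloproteinases, 4 were higher and 2 lower (against 36.5% and 28.7% of all probe sets), with a median of 0.21. LCN2, which binds MMP9, rose by 0.59 (SE 0.18), the general protease inhibitor A2M rose by 0.49 (SE 0.10) and BSG, the cell-surface inducer of metalloproteinases, rose by 0.48 (SE 0.06). A2M lay above the control percentile on 0 arrays and LCN2 on 1 untreated array, and the LCN2 call was lost without SKOV-3-DD cisplatin replicates 2 and 3 (0.49, adjusted p 0.055). CD44, the hyaluronan receptor that can dock MMP9, was at 13.33 to 13.64 with cisplatin and 14.01 to 14.17 untreated and fell by 0.55 (SE 0.06), and the membrane-anchored inhibitor RECK fell by 0.41 (SE 0.11). The RECK call was lost under median centring (−0.21, adjusted p 0.086) and quantile normalization (−0.22, adjusted p 0.12).

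Among 27 measured adamalysins (of 28 listed), the ADAM sheddases and the ADAMTS proteases, 4 were higher and 10 lower (against 36.5% and 28.7% of all probe sets), with a median of −0.02. ADAMTS1, a secreted protease that cuts proteoglycans, was at 13.14 to 13.59 with cisplatin and 10.56 to 11.51 untreated and rose by 2.42 (SE 0.12, limma adjusted p 6.6e-12). ADAM15 and ADAMTS6 rose by 0.59 and 0.49 (SE 0.10 and 0.15). The sheddase ADAM10, at 11.90 to 12.51 with cisplatin and 13.87 to 14.13 untreated, fell by 1.80 (SE 0.08), and ADAMTS9 fell by 1.77 (SE 0.12), while ADAMTS12 fell by 1.54 (SE 0.09). ADAMTS6 lay above the control percentile on 0 arrays, ADAMTS12 on 3 untreated arrays and 0 cisplatin arrays, and ADAMTS9 on 6 cisplatin arrays and all 9 untreated arrays.

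Of 19 measured other pericellular proteases and inhibitors (of 20 listed), 10 were higher and 3 lower (against 36.5% and 28.7% of all probe sets), with a median of 0.26. The cysteine protease CTSV was at 11.58 to 12.12 with cisplatin and 8.94 to 9.76 untreated and rose by 2.48 (SE 0.11, limma adjusted p 1.0e-12), the cathepsin inhibitor CST3 rose by 0.98 (SE 0.08) and the collagen-degrading cathepsin CTSK by 0.64 (SE 0.13). The proprotein convertase PCSK5 fell by 2.30 (SE 0.14), the surface peptidase DPP4 fell by 0.59 (SE 0.12) and the convertase PCSK7 fell by 0.27 (SE 0.08). PCSK5 lay above the control percentile on 0 cisplatin arrays and all 9 untreated arrays, which makes it at least 2.99-fold lower, and CTSK did so on 2 cisplatin arrays and 0 untreated arrays. The DPP4 call was lost after quantile normalization (−0.27, adjusted p 0.073). The PCSK7 direction depended on scaling, since its change was 0.06 after quantile normalization (adjusted p 0.62), and its call was lost under median centring (−0.07, adjusted p 0.47) and without SKOV-3-DD cisplatin replicates 2 and 3 (−0.18, adjusted p 0.085). In these lists limma called 0 genes in any comparison between transfections. At an unadjusted limma p under 0.05 the highest count was 6 of 27 adamalysins, for SKOV-3-AA over SKOV-3-EV with cisplatin. There 12.5% of all probe sets did so. The other counts were 0 to 3 genes per list and comparison, against 3.09% to 12.5% of all probe sets.

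**Figure D4:**
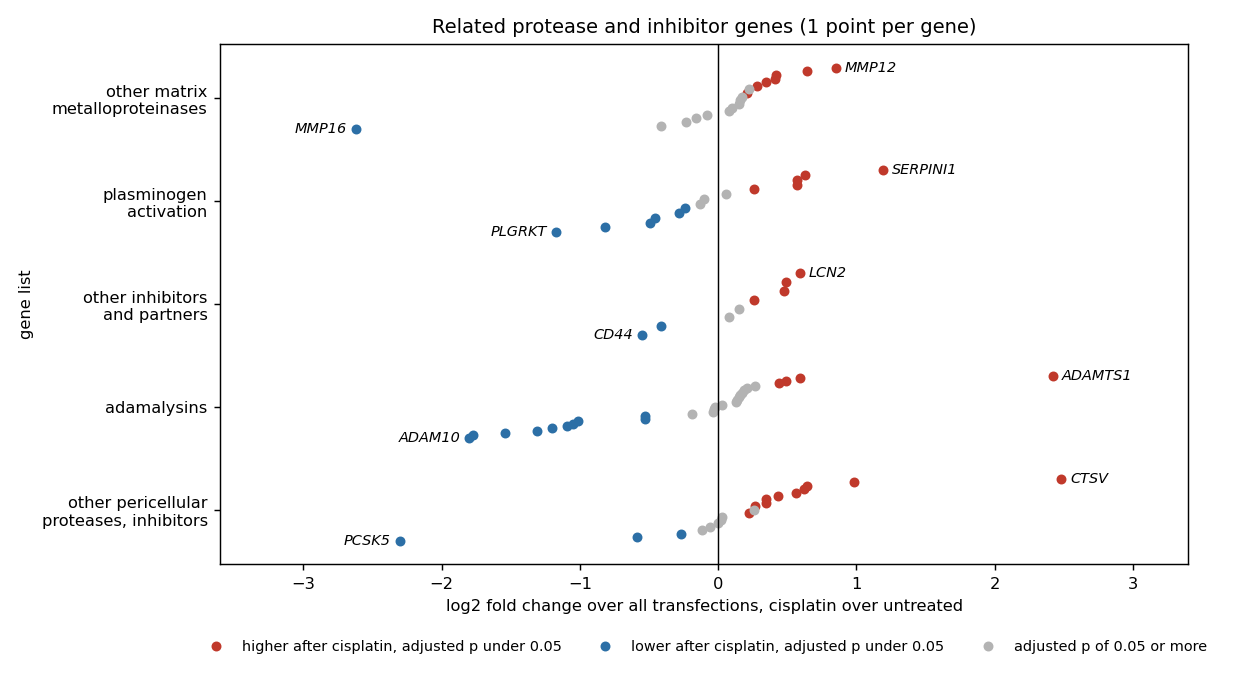
Log2 fold change over all transfections, cisplatin over untreated (horizontal axis), of 86 measured genes in 5 lists of related proteases and inhibitors, 1 point per gene, with the lowest and highest gene of each list named; red and blue points have an adjusted p under 0.05, grey points do not. The adamalysins spread between −1.80 (ADAM10) and 2.42 (ADAMTS1), while most other metalloproteinases stay between −0.41 and 0.85 apart from MMP16 at −2.62, whose cisplatin arrays were not above the control percentile.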

How the data were processed

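The authors extracted total RNA, hybridised it to Clariom S arrays and summarised the probes with SST-RMA in the Transcriptome Analysis Console (TAC 4.1), and they deposited log2 signals of 24351 features on 18 arrays. Such summarisation scales the arrays before any comparison. The medians of the tested probe sets still differed, at 6.33 to 6.44 on cisplatin arrays and 6.53 to 6.61 on untreated arrays. Here 2903 control features were left out and 21448 probe sets were tested, of which 17709 had a symbol in the platform annotation. No source used here names the build of that annotation, no probe set coordinates are printed, and sequences come from RefSeq (GRCh38.p14). One limma model (limma 3.58.1, R 4.3.3) with 6 group means gave fold changes, standard errors, 95% intervals and p-values with Benjamini-Hochberg adjustment over all probe sets. It left 12 residual degrees of freedom, and the SE of a 2-group difference had a median of 0.178. The model was tested on simulated data. Figures used matplotlib 3.10.9 in Python 3.11.15.

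All 9 genes were to be named, with up to 3 genes of the highest and lowest change per list among those called. The genes and lists were chosen with earlier results of these data known. Alternatives were median centring, quantile normalization, leaving out probe sets under the 25th percentile, limma's trend and robust options, a replicate block, the compared groups alone, other call rules and leaving out single arrays. One more, leaving out SKOV-3-DD cisplatin replicates 2 and 3 together, and the averages over both treatments were added after the data were seen.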

Additional observations from a re-analysis of the deposited data

How the results depend on the processing

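The cisplatin changes of MMP1, TIMP1, PLAU and PLAUR kept their direction in every alternative run, and their call in all but the 2 rules that also asked for at least 2-fold. In the 4 cisplatin comparisons, 5 genes in SKOV-3-AA, 4 in SKOV-3-DD, 5 in SKOV-3-EV and 6 over all transfections were called, and each count became 1, MMP1, under the study's thresholds and also under an adjusted p with at least 2-fold. Without single arrays the counts were 4 to 5, 4 to 5, 5 to 6 and 6 to 7. Other alternatives kept all counts within 1.5 times the reported ones, and comparisons between transfections stayed at 0. Leaving out SKOV-3-DD cisplatin replicates 2 and 3, which lay farthest from their group mean, lost no member call.

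Signs turned for small changes. MMP10 in SKOV-3-EV, −0.04, was 0.17 with median centring, 0.25 with quantile normalization and −0.11 to 0.06 without single arrays. TIMP3, 0.09 in SKOV-3-EV and 0.09 over all transfections, was −0.15 and −0.07 with quantile normalization, and −0.17 to 0.25 in SKOV-3-EV without single arrays. TIMP3 in SKOV-3-DD, −0.01, was 0.17 with median centring, 0.45 without SKOV-3-DD cisplatin replicates 2 and 3, and −0.24 to 0.19 without single arrays. MMP9 in SKOV-3-DD, 0.21, was −0.03 without those 2 arrays and −0.11 to 0.41 without single arrays. MMP3 in SKOV-3-AA, 0.18, was −0.02 to 0.30 without single arrays, the lowest without SKOV-3-AA untreated replicate 1. PCSK7, −0.27, was 0.06 with quantile normalization. The cause was not tested.

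Calls also moved for the dim genes. MMP10 in SKOV-3-DD was called with median centring (0.58, limma adjusted p 0.011), quantile normalization (0.65, 0.0056) and without SKOV-3-DD untreated replicate 3 (0.58, 0.013). Over all transfections it was called without SKOV-3-AA untreated replicate 3 (0.23, 0.048) or SKOV-3-DD untreated replicate 3 (0.24, 0.031). MMP9 in SKOV-3-EV was called with median centring (0.64, 0.028) and without SKOV-3-DD cisplatin replicate 2 (0.44, 0.038), and MMP3 in SKOV-3-DD with median centring (0.46, 0.038).

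Median centring moved the median change of all probe sets over all transfections to 0.30, against 0.10 as deposited and 0.04 after quantile normalization, and the share of called probe sets that were higher to 70.6%, against 55.9% and 53.7%. In SKOV-3-AA the share was 67.5% against 49.2%, in SKOV-3-DD 62.6% against 47.0% and in SKOV-3-EV 68.2% against 52.0%.

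The labels give each array a replicate number and do not say what arrays of the same number shared. Deviations from the group means correlated by −0.05 to 0.18 over 45 pairs of the same number (mean 0.04, 8 above 0.1). Over 90 pairs of different number they correlated by −0.18 to 0.15 (mean −0.02, 2 above 0.1). Of 18 arrays, 16 correlated best with their own number, and what lies behind this was not tested. The replicate block gave 5, 4, 5 and 6 genes called in SKOV-3-AA, SKOV-3-DD, SKOV-3-EV and over all transfections, the reported counts.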
